A study of Mus musculus with 13 samples.

Results

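The Hippo pathway and its YAP target genes were examined here in MDA-MB-231 tumours through 9 transcripts, 1 for each of 9 genes. The members were chosen by transcript ID from a list that pairs each ID with a gene name, and all 9 were found among the 244939 transcripts quantified. They are the upstream regulators NF2 (ENST00000338641), LATS1 (ENST00000543571) and LATS2 (ENST00000382592), the co-activator YAP1 (ENST00000282441), and 5 genes used as readouts of its activity, CCN1 (ENST00000451137), CCN2 (ENST00000367976), ANKRD1 (ENST00000371697), AXL (ENST00000301178) and CAV1 (ENST00000341049). The deposited files hold IDs without gene names, so a gene name below stands for that single transcript and not for the sum over the gene.

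The tumours grew for 14 days from 500000 cells of MDA-MB-231, a human cell line from triple-negative breast cancer that carries a stop mutation in NF2, placed with Matrigel in a mammary gland of female NSG mice aged 12 to 13 weeks. NSG mice lack mature lymphocytes, although the labels name them immunocompetent. The vehicle group (7 tumours) received 40% DMSO with 60% polyethylene glycol by daily gavage, and the OCA group (6 tumours) received obeticholic acid, an agonist of the bile acid receptor FXR, at 30 mg per kg in the same solvent. Both groups carry the same line, so every comparison below is between tumours that share its NF2 mutation, and no tumour with intact NF2 was measured.

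The Hippo pathway is a kinase cascade that restrains growth. NF2 encodes merlin, a scaffold at the cell cortex that brings the LATS kinases to the membrane for activation, and LATS1 and LATS2 then phosphorylate YAP so that it is held in the cytoplasm or degraded. Unphosphorylated YAP enters the nucleus, binds TEAD factors and switches on genes such as CCN1, CCN2 and ANKRD1. The pathway acts on YAP mainly at the level of the protein, which RNA levels do not report.

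Each library held 34015674 to 50596490 estimated reads. In bulk tumour RNA, fewer cells of a type and less RNA per cell cannot be told apart. Whether mouse reads from host cells add to the values below was not tested. The label numbers of the animals fall into a lower series (4340 to 4351, with 3 vehicle and 4 OCA tumours) and an upper series (4371 to 4385, with 4 vehicle and 2 OCA tumours), and the labels do not say what the numbers record. Transcripts of 4000 bases or more took 28.0% ± 0.743 (SD, n = 6) of the reads in OCA and 26.6% ± 0.564 (SD, n = 7) in vehicle libraries. Vehicle 1, vehicle 4 and OCA 2 stood apart on the first principal component and also had the highest read totals (49844746, 49764198 and 50596490). Vehicle 2, 3 and 5 had the lowest read totals. The human and tumour identity of the samples was not checked against marker genes, because the files give no gene names for them.

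The 9 transcripts spanned a wide range of abundance, with the secreted YAP targets at the top and the upstream regulators at the bottom. On the TPM scale, which corrects for transcript length, CCN2 averaged 326.5 ± 68.4 over all libraries (SD, n = 13) and held place 306 among all transcripts. CCN1 averaged 176 ± 40.5 (place 597), CAV1 122 ± 33.96 (place 882) and AXL 114 ± 17.5 (place 950). ANKRD1 averaged 33.4 ± 17.8 TPM and YAP1 29.1 ± 4.16. LATS2 followed at 9.11 ± 1.43 TPM and LATS1 at 3.66 ± 0.448. The order between neighbours held in all 13 libraries for CCN2 above CCN1, AXL above ANKRD1, YAP1 above LATS2, LATS2 above LATS1 and LATS1 above NF2. It did not separate CAV1 from AXL (CAV1 higher in 5 of 13 libraries) or ANKRD1 from YAP1 (ANKRD1 higher in 7 of 13), and CCN1 exceeded CAV1 in 10 of 13.

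**Figure D1:**
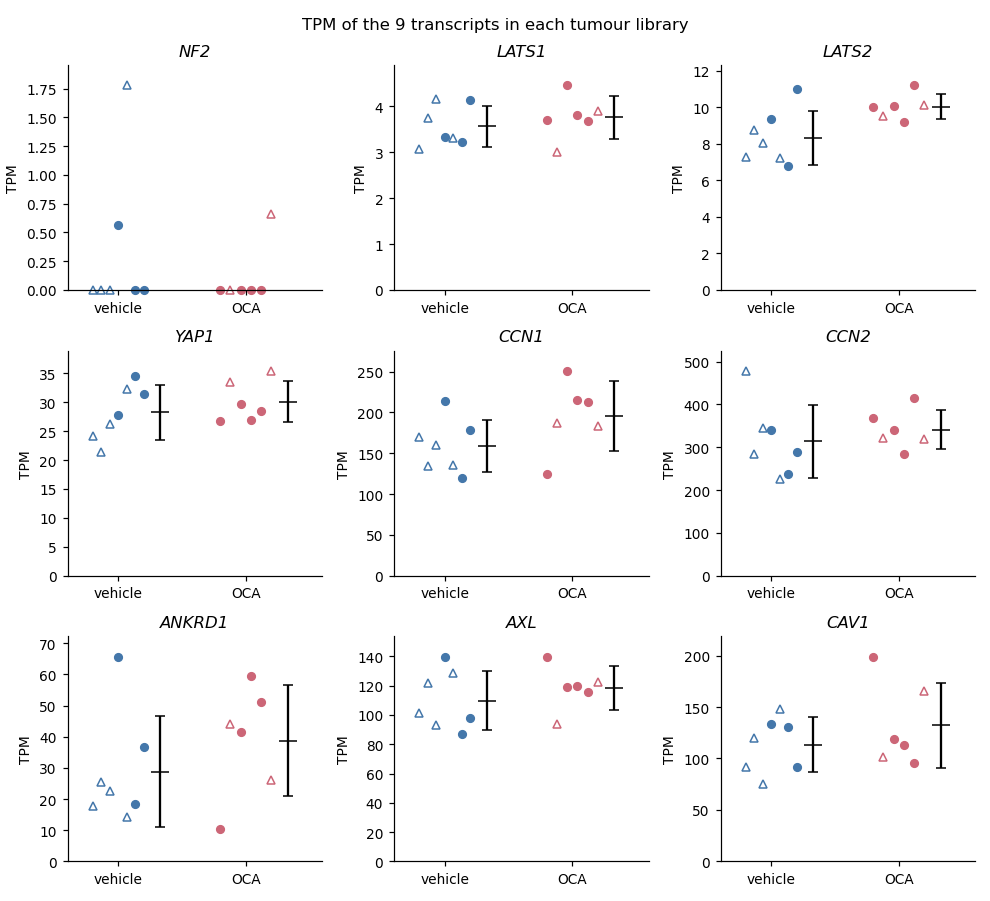
TPM (vertical axis, linear from 0, a separate scale for each transcript) in the 7 vehicle (blue) and 6 OCA (red) libraries. Filled circles are the lower and open triangles the upper label series, and the black bars give the group mean ± SD, left out for NF2, which was at 0 in 10 of 13 libraries. The groups overlap for every transcript, and ANKRD1 covers the widest range relative to its mean among the transcripts present in all libraries.

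Among the upstream regulators, the NF2 transcript was assigned no reads in 10 of 13 tumours. It held 161.6 estimated reads in vehicle 4 and 364.3 in vehicle 5, and 167.7 in OCA 6, which correspond to 0.564, 1.78 and 0.663 TPM. These 3 tumours came from both treatments and both label series. NF2 did not pass the filter on low counts and was not tested in the main fit. A value of 0 for 1 transcript can come from the model that divides reads among the transcripts of a gene, so it does not show that the gene was silent.

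LATS1 encodes 1 of the kinases that inactivate YAP. Its transcript measured 3.08 TPM in the lowest, 3.32 in the median and 4.16 in the highest vehicle library, against 3.01, 3.75 and 4.46 in OCA libraries. The group ranges were nearly the same, and the lowest value and the highest value both belonged to OCA tumours (OCA 2 and OCA 3). The log2 fold change, OCA against vehicle, was 0.04 (SE 0.10, 95% interval -0.18 to 0.25). The edgeR adjusted p, over all tested transcripts, was 0.999987 for LATS1 and for each of the other 7 members tested.

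LATS2, the related kinase and itself a known transcriptional target of YAP in a feedback loop, was the member whose interval excluded 0. It measured 6.77, 8.03 and 10.99 TPM in the lowest, median and highest vehicle library and 9.20, 10.0 and 11.2 TPM in OCA libraries. All 6 OCA tumours lay above the vehicle mean of 8.33 ± 1.48 TPM (SD, n = 7), with an OCA mean of 10.0 ± 0.683 TPM (SD, n = 6), while vehicle 7 and vehicle 4 reached into the OCA range. Its log2 fold change was 0.23 (SE 0.10, 95% interval 0.01 to 0.45), and its p, which was under 0.05 before adjustment, did not pass after it (edgeR adjusted p = 0.999987). The share of reads on long transcripts was higher in OCA libraries, and a relation of LATS2 to it did not pass the adjusted threshold. Across the 13 libraries Pearson's r was 0.59 (permutation p = 0.0343, adjusted p = 0.550 over 16 relations) and Spearman's rho 0.68 (permutation p = 0.0122), and r was 0.62 without the 2 libraries farthest from the median share. With that share as a covariate the LATS2 log2 fold change was 0.13 (SE 0.15), and with the label series as a covariate it was 0.21 (SE 0.10). It was 0.14 (SE 0.16) within the lower label series and 0.30 (SE 0.13) within the upper. The transcript is 5546 bases long. The share differed between the groups, so its part in the LATS2 values and that of treatment cannot be cleanly told apart. A cause was not tested.

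LATS2 was the more abundant of the 2 kinase transcripts in every tumour, which compares single transcripts and not the genes. The LATS2 to LATS1 ratio of TPM ranged from 1.93 in vehicle 3 to 3.17 in OCA 2. It averaged 2.34 ± 0.309 (SD, n = 7) in vehicle and 2.70 ± 0.352 (SD, n = 6) in OCA tumours, with overlapping ranges of 1.93 to 2.81 and 2.26 to 3.17.

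YAP1 encodes the co-activator that the kinases restrain. Its transcript measured 21.4, 27.8 and 34.5 TPM in the lowest, median and highest vehicle library, and 26.7, 29.1 and 35.4 TPM in OCA libraries. The OCA tumours fell inside the vehicle range except OCA 6, which had the highest value of all. OCA against vehicle gave a log2 fold change of 0.05 (SE 0.12, 95% interval -0.21 to 0.31). The direction was not the same in the label series. In the lower series the OCA tumours had 27.9 ± 1.39 TPM of YAP1 (SD, n = 4) where the vehicle tumours had 31.3 ± 3.36 (SD, n = 3), and the log2 fold change was -0.20. In the upper series the OCA tumours had 34.4 ± 1.38 TPM (SD, n = 2) where the vehicle tumours had 26.0 ± 4.57 (SD, n = 4), and the log2 fold change was 0.37. The test of the difference between the series gave 0.57 on the log2 scale (SE 0.21, edgeR unadjusted p = 0.0184). It did not pass after adjustment (edgeR adjusted p = 0.999932), whereas 6 of 74973 transcripts did.

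Among the YAP targets, CCN1, which encodes the secreted matricellular protein CYR61, measured 119.8, 160.0 and 214 TPM in the lowest, median and highest vehicle library. In OCA libraries these values were 124, 200.1 and 251 TPM. Of the 6 OCA tumours, 5 lay above the vehicle mean of 159 ± 32.2 TPM (SD, n = 7), and OCA 1 lay at the foot of the range with vehicle 6. The fitted log2 fold change was 0.26 (SE 0.15, 95% interval -0.07 to 0.60).

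CCN2 encodes CTGF, a matricellular protein of the same family that promotes matrix deposition. It measured 227, 289.7 and 478 TPM in the lowest, median and highest vehicle library and 283, 331 and 414 TPM in OCA libraries. The OCA tumours lay within the vehicle range, whose top value came from vehicle 1. For CCN2 the log2 fold change was 0.09 (SE 0.15, 95% interval -0.25 to 0.42). CCN2 exceeded CCN1 in every library, by a ratio of TPM from 1.31 in OCA 4 to 2.95 in OCA 1, and these extremes came from the same group. The vehicle ratio was 1.99 ± 0.429 (SD, n = 7) and the OCA ratio 1.84 ± 0.596 (SD, n = 6).

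ANKRD1, an ankyrin repeat protein of the nucleus and sarcomere whose gene is a direct YAP and TEAD target, varied most. It measured 14.3, 22.6 and 65.6 TPM in the lowest, median and highest vehicle library and 10.4, 42.8 and 59.5 TPM in OCA libraries. The OCA values spanned almost the whole range, from OCA 1, the lowest of all tumours, to OCA 4, which was exceeded by vehicle 4 alone. The log2 fold change was 0.40 (SE 0.41, 95% interval -0.48 to 1.28). It was 0.75 without vehicle 4 and 0.23 without OCA 4, -0.02 within the lower label series and 0.78 within the upper.

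AXL encodes a receptor tyrosine kinase for GAS6 and is linked to invasion in this line. It measured 87.1, 101 and 139 TPM in the lowest, median and highest vehicle library and 93.7, 119 and 140 TPM in OCA libraries. The highest vehicle and the highest OCA tumour, vehicle 4 and OCA 1, had nearly equal values, and the ranges nearly coincided. AXL had a log2 fold change of 0.07 (SE 0.12, 95% interval -0.19 to 0.33).

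CAV1 encodes caveolin-1, the coat protein of caveolae. It measured 75.5, 120.2 and 149 TPM in the lowest, median and highest vehicle library and 96.0, 116 and 199 TPM in OCA libraries. OCA 1 and OCA 6 exceeded all vehicle tumours, and the other OCA tumours lay inside the vehicle range. Its log2 fold change was 0.18 (SE 0.21, 95% interval -0.26 to 0.63), and it was 0.03 without OCA 1.

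Set against the whole table, no change with OCA was called for the members tested. Of the 8 members that passed the filter, 0 had an adjusted p under 0.05 by edgeR's quasi-likelihood test, as did 0% of the 74973 transcripts tested (21 transcripts passed by DESeq2 and 0 by limma-voom). At an unadjusted edgeR p under 0.05 there was 1 member, LATS2, against 2.77% of all tested transcripts. Among the 14710 transcripts that averaged 10 CPM or more, as all 8 members did, there were 834. Both DESeq2 and limma-voom also gave 0 members past the adjusted threshold and 1 at an unadjusted p under 0.05. No member had groups that did not overlap, as 0.116% of the 14710 transcripts that averaged 10 CPM or more did. All 8 log2 fold changes were above 0, with a median of 0.13, whereas 45% of those 14710 transcripts were above 0 and their median was -0.02. This count fell to 5 of 8 within the upper label series. It was 6 of 8 within the lower series and 6 of 8 with the share on long transcripts as a covariate. Among these 14710 transcripts, the median was 0.05 for those of 4000 bases or more and -0.05 for shorter ones. The members of 4000 bases or more (LATS1, LATS2, YAP1 and AXL) had a median of 0.06, and the shorter ones (CCN1, CCN2, ANKRD1 and CAV1) a median of 0.22.

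The intervals set bounds on the fold change between the groups, not on the levels in single tumours. For 7 of the 8 members the 95% interval excluded a 2-fold difference in either direction. The upper limit was 1.19-fold for LATS1, 1.24-fold for YAP1, 1.26-fold for AXL, 1.34-fold for CCN2, 1.36-fold for LATS2, 1.51-fold for CCN1 and 1.55-fold for CAV1. The lower limits of these 7 ran from 0.833-fold for CAV1 to 1.01-fold for LATS2. For ANKRD1 the interval ran from 0.717-fold to 2.42-fold, so a 2-fold difference in its favour could not be told from none at its spread. The intervals are for 1 transcript at a time and are not widened for the number of transcripts.

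**Figure D2:**
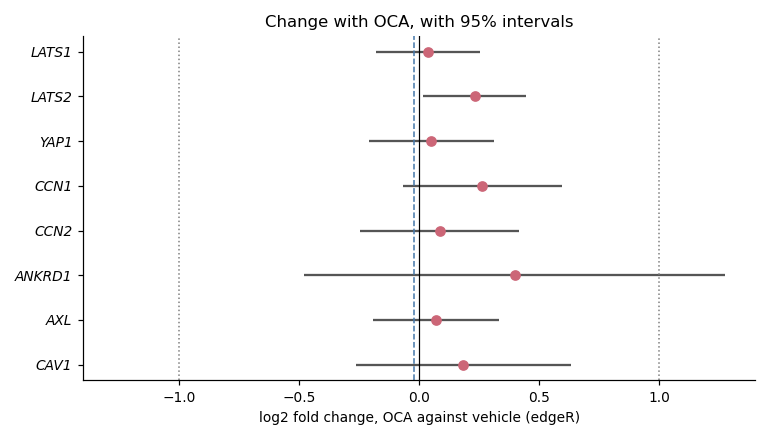
Log2 fold change of OCA against vehicle (horizontal axis, edgeR) for the 8 members that passed the filter, with 95% intervals as bars. The dashed blue line is the median of the 14710 transcripts averaging 10 CPM or more (-0.02), and the dotted lines mark a 2-fold difference. All points lie above 0, the interval of LATS2 starts at 0.01, and only that of ANKRD1 reaches past a 2-fold difference.

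The members differed in how much they varied from tumour to tumour. Within treatment groups, ANKRD1 had a coefficient of variation of 54.9% of its CPM, and only 0.887% of the 5635 transcripts within 2-fold of its abundance varied more. Its TPM covered a 6.31-fold range between tumours, from 10.4 in OCA 1 to 65.6 in vehicle 4, where the other members present in all libraries covered 1.48-fold (LATS1) to 2.63-fold (CAV1). CAV1 followed with 28.3%, which 5.94% of 943 transcripts of like abundance exceeded. CCN2 varied by 21.1% and CCN1 by 19.8%, each exceeded by about the same share (20.3% and 20.8%) of transcripts of like abundance. YAP1, at 15.5%, and AXL, at 15.9%, lay near the medians of 14.1% and 14.3% for their abundance. The kinases were the steadiest. LATS1 varied by 11.9% and LATS2 by 12.6%, and 83.7% and 69.5% of transcripts of like abundance varied more. An estimate is a whole number where the model divided no reads between transcripts, and ANKRD1 was whole in all 13 libraries to within 0.001. CCN2 was whole in 12 and LATS2 in 9 libraries, and LATS1, YAP1, CCN1, AXL and CAV1 in 0. Of the transcripts averaging 10 CPM or more, 2.26% were whole in all 13.

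**Figure D3:**
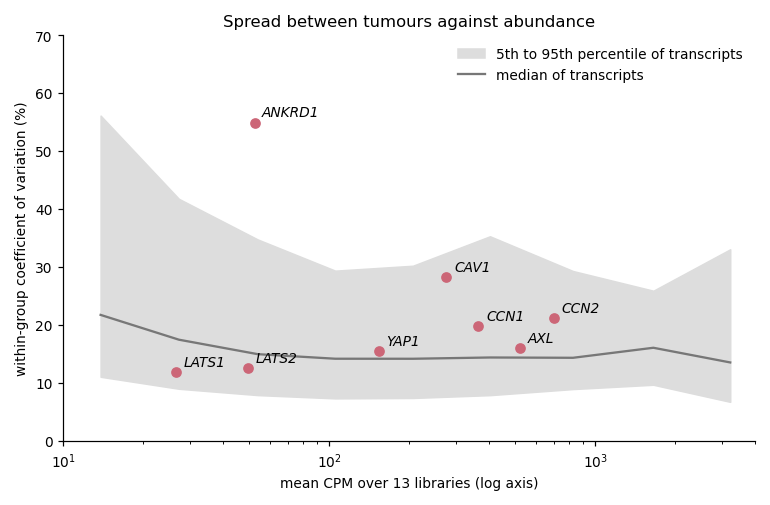
Within-group coefficient of variation of CPM (vertical axis, percent) against mean CPM over 13 libraries (horizontal log axis) for the 8 members (red points). The grey line and band are the median and the 5th to 95th percentile of transcripts averaging 10 CPM or more, in classes of abundance. ANKRD1, at 54.9%, is the member above the band, and the LATS transcripts lie under the median.

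Whether the readouts of YAP moved together from tumour to tumour was asked over all 28 pairs of the 8 members, on log2 CPM across 13 libraries. The points of a pair share a library and its scaling. The median r over the 28 pairs was 0.01, 14 pairs were below 0, and 1 pair passed the adjusted threshold. Among the 10 pairs of the 5 targets, r ran from -0.43 (ANKRD1 and CAV1) to 0.84 (CCN1 and ANKRD1).

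CCN1 and ANKRD1 were the pair that passed. Pearson's r was 0.84 (permutation p = 0.00045, adjusted p = 0.0126 over 28 pairs) and Spearman's rho 0.87 (permutation p = 0.00035, adjusted p = 0.0098). The 5 tumours with the most ANKRD1 (vehicle 4, then OCA 4, 5, 2 and 3) were also the 5 with the most CCN1. As a description, 8 of 14709 other transcripts averaging 10 CPM or more, ANKRD1 among them, had an r with CCN1 of 0.84 or more, and the median over those transcripts was -0.05. Without the 2 tumours farthest from the CCN1 median, OCA 1 and vehicle 6, r was 0.78 (permutation p = 0.00543, adjusted p = 0.0760). With treatment group means removed it was 0.84 (permutation p = 0.00056, adjusted p = 0.0157). Within the lower label series r was 0.89 (exact permutation p = 0.0135, adjusted p = 0.189, 7 tumours). Within the upper series r was 0.54 (exact permutation p = 0.282, adjusted p = 0.877, 6 tumours). Neither series alone passed the adjusted threshold, where so few tumours leave little room to pass over 28 pairs. Without OCA 1, r was 0.80 and the adjusted permutation p was 0.0689, above the threshold. Neither transcript followed the read total (r = 0.46 for CCN1 and 0.38 for ANKRD1, permutation p = 0.113 and 0.197) or the share on long transcripts (r = 0.30 and 0.11, permutation p = 0.325 and 0.724) past the threshold, each adjusted over 16 relations (adjusted p = 0.588 for the read total, 0.650 and 0.869 for the share).

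**Figure D4:**
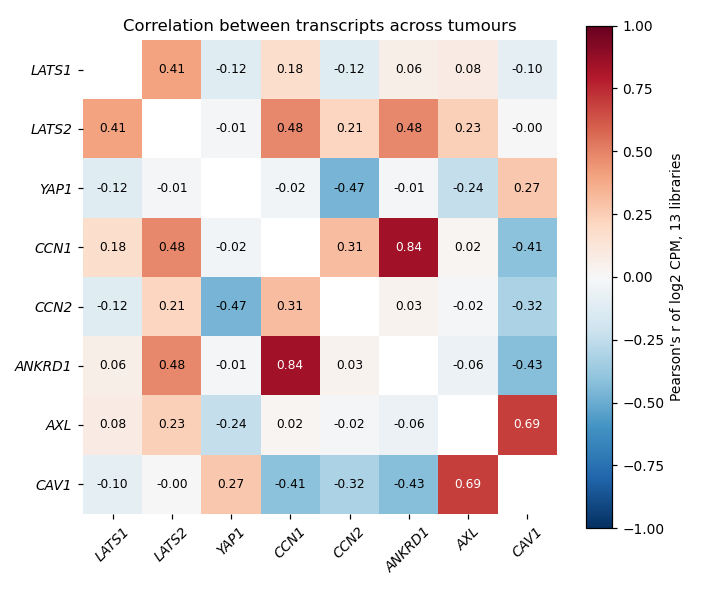
Pearson's r of log2 CPM across 13 libraries for each pair of the 8 members (colour and printed value, from -1 in blue to 1 in red). CCN1 with ANKRD1 (0.84) and AXL with CAV1 (0.69) are the highest pairs, and YAP1 with CCN2 (-0.47) is the lowest.

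AXL and CAV1 formed the next highest pair, which missed the adjusted threshold. Pearson's r was 0.69 (permutation p = 0.0100, adjusted p = 0.140) and Spearman's rho 0.61 (permutation p = 0.0309, adjusted p = 0.432). OCA 1 held the most CAV1 and, with vehicle 4, the most AXL, while vehicle 6 combined the least AXL with a CAV1 level above the median. Without vehicle 6, r was 0.84 and the adjusted permutation p 0.00868. Within the lower series r was 0.54 (exact permutation p = 0.197, adjusted p = 0.612, 7 tumours) and within the upper 0.87 (exact permutation p = 0.0486, adjusted p = 0.739, 6 tumours). As a description, 76 of 14709 transcripts (0.517%) correlated with AXL as strongly as CAV1 did, and 244 (1.66%) with CAV1 as strongly as AXL did.

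Between the pairs, r was low or negative. CAV1 had an r of -0.41 with CCN1 (permutation p = 0.165) and -0.43 with ANKRD1 (permutation p = 0.144), both with an adjusted p of 0.590. OCA 1 showed this contrast most, with the highest CAV1 (199 TPM) and AXL (140 TPM) and the lowest ANKRD1 (10.4 TPM) of all tumours. Without the 2 tumours farthest from the median of the first transcript of the pair, r was -0.09 for CCN1 and CAV1 and -0.32 for ANKRD1 and CAV1.

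**Figure D5:**
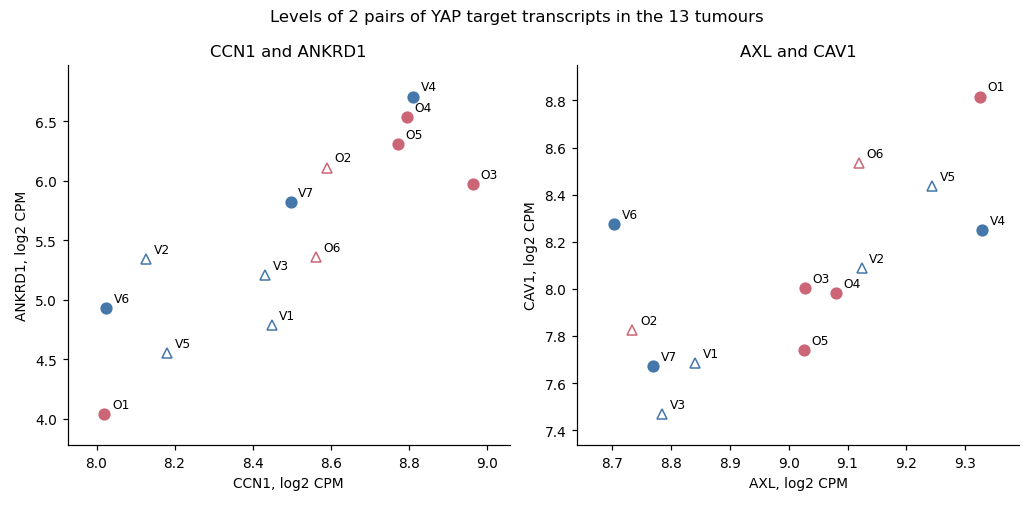
Log2 CPM of ANKRD1 against CCN1 (left) and of CAV1 against AXL (right) in the 13 tumours, labelled V for vehicle (blue) and O for OCA (red) with the replicate number. Filled circles are the lower and open triangles the upper label series. O1 lies at the lower left of the left panel and at the upper right of the right panel, and V6 lies off the trend of the right panel.

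CCN1 and CCN2, the pair most often read together as YAP targets, had an r of 0.31 (permutation p = 0.302, adjusted p = 0.845) and a rho of 0.16 (permutation p = 0.604), and r was 0.33 without the 2 tumours farthest from the CCN1 median. Of those 14709 transcripts, 15.5% correlated with CCN1 as highly as CCN2 did. Vehicle 1, with the most CCN2, held place 8 of 13 in CCN1. CCN2 with ANKRD1 gave an r of 0.03 (permutation p = 0.917, adjusted p = 0.997).

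No relation of the YAP1 transcript to its targets passed over the 13 libraries. With the 5 targets its r ran from -0.47 (CCN2) to 0.27 (CAV1), 4 of the 5 were below 0, and 0 passed at an unadjusted permutation p under 0.05. For YAP1 and CCN2 the permutation p was 0.108 (adjusted p = 0.590) and rho was -0.47 (permutation p = 0.106), and without vehicle 2 and vehicle 6, the tumours farthest from the YAP1 median, r was -0.66 (permutation p = 0.0275, adjusted p = 0.257). Without vehicle 2 alone it was -0.73 (permutation p = 0.00764, adjusted p = 0.107), and without vehicle 1 alone -0.32 (permutation p = 0.305, adjusted p = 0.777). LATS2 had an r of 0.48 with both CCN1 and ANKRD1 (permutation p = 0.0966 and 0.0961, adjusted p = 0.590 for each), and LATS1 and LATS2 had an r of 0.41 (permutation p = 0.169, adjusted p = 0.590).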

How the data were processed

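RNA of 13 tumours (7 vehicle, 6 OCA) was sequenced as paired reads of 150 bases from RNA with an integrity number above 6, per the labels. STAR, Salmon, DESeq2 and FastQC are listed, with no version, beside the build GRCh38.p14, per the submitters' processing notes. The authors deposited, per the file headers, an estimated count of reads and a TPM value for each transcript and library. The annotation, and how mouse reads were treated before deposit, are not given in the sources used here. All IDs are of human transcripts, and mouse reads were not separated here, so host reads may be among those counted.

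Estimated counts were rounded, filtered with filterByExpr (minimum count 10, total 15), scaled by TMM and tested, OCA against vehicle, over all transcripts with edgeR 4.0.16 (robust quasi-likelihood F test, Benjamini-Hochberg, threshold 0.05; R 4.3.3). Standard errors are the log2 fold change over the square root of F, and 95% intervals use the degrees of freedom of the fit. TPM values are as deposited. Correlations use log2 CPM (prior count 2), 100000 permutations for 10 or more libraries and all permutations otherwise. The plan named 36 pairs, and the 8 with NF2 were left out because it failed the filter. Alternatives used DESeq2 1.42.0, limma 3.58.1, other scalings, filters, covariates and left-out libraries, and the fits were tested on simulated data. All 9 transcripts are named by rule. The members and lists were chosen with earlier results of these data known. Replicates are numbered in accession order and taken as separate animals. If they were not, p-values measure only the spread between samples. Of the planned lists, other Hippo genes and cell type markers were not analysed here, since no table used here pairs human transcript IDs with names, and gene sums and sequences were left out for the same reason.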

Additional observations from a re-analysis of the deposited data

Results flagged for a closer look

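Dixon's test at the 95% level was run on 22 sets of values, the TPM of the 9 transcripts and 2 library measures (read total and share on long transcripts) in each group. About 1 in 20 such tests finds an outlier by chance, or 1.1 here. NF2 gave both results past the critical value. Vehicle 5, at 1.78 TPM, stood apart from the other vehicle libraries, of which the next was vehicle 4 at 0.564 TPM and the others were at 0. With most values tied at 0, the chance rate above does not apply to this result. OCA 6, at 0.663 TPM, was the 1 OCA library with reads. The other 5 were at 0, so any value above 0 would have passed there, and the test says nothing about its size. No other transcript and neither library measure held an outlier.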

How the results depend on the processing

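No paired analysis was possible because replicate numbers were given in accession order and pair no libraries. Gene sums were not run for want of gene names. The count of 0 members past the adjusted threshold held in 16 alternatives and in 13 fits that left out 1 library. The count over all transcripts, 0, became 21 with DESeq2, 2 with limma on log2(TPM + 0.1) and 1 without the 3 libraries apart on component 1, and 0 to 1 with a library left out (1 without vehicle 7 or without OCA 6). Members with an unadjusted p under 0.05, 1 in the report, numbered 0 to 1 in the 16 alternatives and 0 to 2 with a library left out. The member was not always LATS2. It was ANKRD1 in the upper label series alone (edgeR unadjusted p = 0.0408). It was CCN1 without the 3 libraries apart on component 1 (0.0419) and without OCA 1 (0.0162). LATS2 was above 0.05 in these 3 fits and in others, such as scaling by library totals only (0.0756) and the label series as a covariate (0.0649).

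LATS2 (0.13 to 0.30) and CCN1 (0.18 to 0.39) kept a positive log2 fold change in those 16 alternatives. Each of the other 6 members turned sign in at least 1 of them. With the share on long transcripts as a covariate LATS1 was -0.13 and CAV1 -0.083. In the upper label series alone LATS1 was -0.082, CCN2 -0.079 and AXL -0.067, and in the lower series alone YAP1 was -0.20 and ANKRD1 -0.022. YAP1 was -0.037 without the 3 libraries apart on component 1. With 1 library left out, LATS1 ran from -0.0057 to 0.095, YAP1 from -0.013 to 0.11, LATS2 from 0.19 to 0.29, CCN1 from 0.19 to 0.37, CCN2 from 0.019 to 0.20, ANKRD1 from 0.23 to 0.75, AXL from 0.016 to 0.14 and CAV1 from 0.027 to 0.26. The cause of these turns was not tested.

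The r of CCN1 and ANKRD1 kept its sign. It missed the adjusted threshold within the lower and upper series (0.89 and 0.54, few tumours in each). The pair missed it without the 3 libraries apart on component 1 (0.85). It also missed without the 3 vehicle libraries of lowest total (0.85, a setting added after seeing the data) and without the 2 farthest libraries (0.78). Leaving out 1 library gave 0.80 to 0.87, and only 1 of these 13 settings, without OCA 1, missed the threshold (adjusted permutation p = 0.0689). AXL and CAV1 passed at 0.87 without the 2 farthest libraries, and leaving out 1 gave 0.60 to 0.84. CCN1 and CCN2 gave 0.17 to 0.46 and YAP1 and CCN2 -0.73 to -0.32. By median TPM, 4 members changed place, AXL with CAV1 and YAP1 with ANKRD1. The NF2 transcript, at 0 in 10 of 13 libraries and with at most 364.3 reads, did not pass the filter of the main fit. The library with the most NF2 reads was the one of lowest total. Without the low-count filter the NF2 log2 fold change was -1.65 (SE 2.25, edgeR unadjusted p = 0.478). In the upper label series alone, where it passed the filter, it was -0.47 (SE 3.28, edgeR unadjusted p = 0.890).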

Other observations

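OCA 1 and vehicle 4 show that a tumour of either group can sit at an end of the ANKRD1 range (10.4 and 65.6 TPM) while holding a high AXL level (140 and 139 TPM). The AXL to CAV1 ratio of TPM crossed 1 within both groups, from 0.666 in vehicle 6 to 1.23 in vehicle 3, and was above 1 in 8 of 13 tumours. The CCN1 to ANKRD1 ratio ran from 3.26 in vehicle 4 to 12.0 in OCA 1. In the OCA group alone it covered 3.63 to 12.0, so the pair that correlated did not keep a fixed ratio.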
